A study of Mus musculus with 3 samples.

Results

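The miR-15/16 family is a group of small regulatory RNAs that share one seed, the stretch near the 5′ end through which a microRNA (miRNA) recognises its target messenger RNAs. Its reads in mouse liver were taken from 7 of the 1174 annotated miRNA precursors: Mir15a, Mir15b, Mir16-1, Mir16-2, Mir195a, Mir497 and Mir322. These gave 13 arms among 420 measured entries, made up of 6 guide arms (5p) and 7 passenger arms (3p). The guide of Mir16-1 and Mir16-2 has the same sequence and was counted as one miRNA, miR-16-5p. Mir195b and Mir497b, which are also annotated, gave no entry.

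The data were small RNA libraries of C57BL/6 mouse liver, taken 4 weeks after injection of a scAAV9 vector, a self-complementary adeno-associated virus. The vector carried a Tough Decoy (TuD) against miR-122 in the TuD-miR-122 group and one against let-7 in the TuD-let-7 group, and no decoy in the mock group. A Tough Decoy is a transcribed RNA hairpin with exposed sites that bind a chosen miRNA. All groups thus shared the strain, the vector type and the time, and the labels give neither the promoter of the decoy nor the age, sex or number of animals. Each group had 1 library, so no test between conditions was possible, and every difference below compares libraries. The series was set up to look at the stability and integrity of miRNAs under these inhibitors. Neither decoy was aimed at this family.

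A miRNA precursor hairpin is cut into a short duplex. One strand, the guide, is kept in an Argonaute protein, while the other, the passenger, is mostly discarded. Members of this family are known for slowing the cell cycle by lowering cyclins and related proteins, and miR-15a and miR-16 also repress the survival factor BCL2. They are made in many tissues, liver among them. The 3′ ends of finished miRNAs can be extended by terminal nucleotidyltransferases or shortened by exonucleases, so that reads of one miRNA differ at that end.

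The 6 measured guide sequences are shown because the family is defined by them. The sequences are RefSeq's on GRCm38.p6, 5′ to 3′, with the seed (bases 2 to 8) in capitals.

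miR-16-5p: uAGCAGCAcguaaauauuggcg
miR-195a-5p: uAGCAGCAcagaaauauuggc
miR-15a-5p: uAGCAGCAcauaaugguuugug
miR-15b-5p: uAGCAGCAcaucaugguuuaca
miR-497a-5p: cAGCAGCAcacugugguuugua
miR-322-5p: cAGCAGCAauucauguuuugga

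All 6 share the seed AGCAGCA. Of 1679 RefSeq mature names, at least 10 carry that seed, in a search that left out 1 chromosome. The other 4 found (miR-195b, miR-6342, miR-6353 and miR-6419) gave no entry here. Outside the seed the members fall into subgroups. Over the first 21 nt, with position 1 at the 5′ end and the first-named member's base given first, miR-16-5p and miR-195a-5p differ at G10A and T11G. miR-15a-5p and miR-15b-5p differ at A12C, G20A and T21C. miR-16-5p and miR-497a-5p share only 11 of 21 bases.

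The loci pair the members in another way, so that each subgroup is split over the genome (GRCm38). Mir15a (chr14:61632027-61632110) and Mir16-1 (chr14:61631880-61631972) lie on the minus strand within Dleu2, a non-coding gene; Mir15a is in an intron and Mir16-1 overlaps an exon of at least 1 transcript. Mir15b (chr3:69009772-69009835) and Mir16-2 (chr3:69009902-69009996) lie on the plus strand in introns of Smc4, which encodes a condensin subunit. Mir497 (chr11:70234717-70234800) and Mir195a (chr11:70235042-70235135) follow each other on the plus strand. Mir322 (chrX:53054255-53054349, minus strand) heads a cluster with Mir503, Mir351, Mir542 and the Mir450 genes. The hairpins of Mir497 and Mir195a, shown with the guide in capitals, are the pair whose guides differed most between the libraries below.

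Mir497: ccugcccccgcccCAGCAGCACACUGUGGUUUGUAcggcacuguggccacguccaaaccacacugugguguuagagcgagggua
Mir195a: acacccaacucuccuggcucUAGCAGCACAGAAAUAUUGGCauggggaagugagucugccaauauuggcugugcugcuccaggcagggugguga

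The libraries held 3681585 reads (TuD-miR-122), 2066892 reads (TuD-let-7) and 3450317 reads (mock). Levels are given as RPM, reads scaled to 1000000 non-target reads, that is miRNA reads outside the miR-122 and let-7 (with miR-98) loci. Non-target reads numbered 1452494, 487713 and 1377808 in the same order. The targets moved differently. For each non-target read there were 0.602 reads of miR-122 in TuD-miR-122, against 0.745 in mock, and 0.0897 reads of let-7 family loci in TuD-let-7, against 0.220 in mock. miR-122 took 64.8% of miRNA reads in TuD-let-7 and 37.9% in mock, so non-target reads made up a smaller share there, 32.3% against 50.9%. If all reads were the scale, ratios to mock would be multiplied by 0.591 in TuD-let-7 and by 0.988 in TuD-miR-122. The mock library stood apart in 4 skeletal muscle markers (miR-1a-3p, both arms of miR-133a, miR-206-3p), which summed to 931 RPM in TuD-miR-122 and 213 RPM in TuD-let-7, against 9831 RPM in mock; miR-133a-5p had 0 reads in TuD-let-7, and the others were above 0 in every library. The TuD-miR-122 library stood apart in other miRNAs. miR-136-5p had 5502 reads in TuD-miR-122, 407 in TuD-let-7 and 353 in mock. miR-127-3p had 2170, 220 and 108 reads in that order, and miR-216a-5p had 732 in TuD-miR-122 against 37 in mock. The part of these differences in the family's values was not tested.

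The family made up a few percent of the non-target reads in every library. Its 6 guides summed to 58319 reads or 4.02% of non-target reads in TuD-miR-122, 11849 reads or 2.43% in TuD-let-7, and 52169 reads or 3.79% in mock. The TuD-let-7 library was the low one. The ratio to mock was 1.06 (95% interval 1.05 to 1.07) in TuD-miR-122, and 0.642 (0.629 to 0.655) in the TuD-let-7 library. Against the TuD-miR-122 library, a control chosen after seeing the muscle markers of mock, the TuD-let-7 ratio was 0.605 (0.593 to 0.617). These intervals, like all below, cover counting error only, since reads without molecular identifiers include PCR copies and 1 library shows no spread between animals.

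miR-16-5p, the most abundant member and the one whose loss with miR-15a is known from human chronic lymphocytic leukaemia, had 23438 RPM in TuD-miR-122, 11255 RPM in TuD-let-7 and 22404 RPM in mock. miR-15a-5p, its partner from the Dleu2 locus, had 9119.5 RPM in TuD-miR-122, 7929 RPM in TuD-let-7 and 9135 RPM in mock. The first was much lower in TuD-let-7 than in the other libraries, and the second a little lower.

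miR-195a-5p, known to act on cell cycle genes in the postnatal mouse heart, had 2463 RPM in TuD-miR-122, 917 RPM in TuD-let-7 and 1812 RPM in mock. miR-497a-5p, encoded beside it, had 2303 RPM in TuD-miR-122, 2407 RPM in TuD-let-7 and 1879.8 RPM in mock. These neighbours were apart in TuD-let-7 and close to each other in the other libraries.

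miR-15b-5p, encoded with the second copy of miR-16, had 1653 RPM in TuD-miR-122, 716 RPM in TuD-let-7 and 1389 RPM in mock. miR-322-5p, the rodent counterpart of human miR-424 and known from muscle differentiation, had 1174.5 RPM in TuD-miR-122, 1072 RPM in TuD-let-7 and 1244 RPM in mock. With the TuD-miR-122 library as control, the ratio in TuD-let-7 was 0.480 (0.467 to 0.494) for miR-16-5p, 0.372 (0.337 to 0.411) for miR-195a-5p and 0.433 (0.386 to 0.485) for miR-15b-5p, against 0.869 for miR-15a-5p, 0.913 for miR-322-5p and 1.05 for miR-497a-5p. miR-15b-5p thus followed the pattern of miR-16-5p, while miR-322-5p was the member that varied least in absolute RPM. The least abundant member was miR-322-5p in TuD-miR-122 and mock, and miR-15b-5p in TuD-let-7. The intervals of neighbours in this order overlapped only for miR-497a-5p and miR-195a-5p in mock and for miR-322-5p and miR-195a-5p in TuD-let-7.

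**Figure D1:**
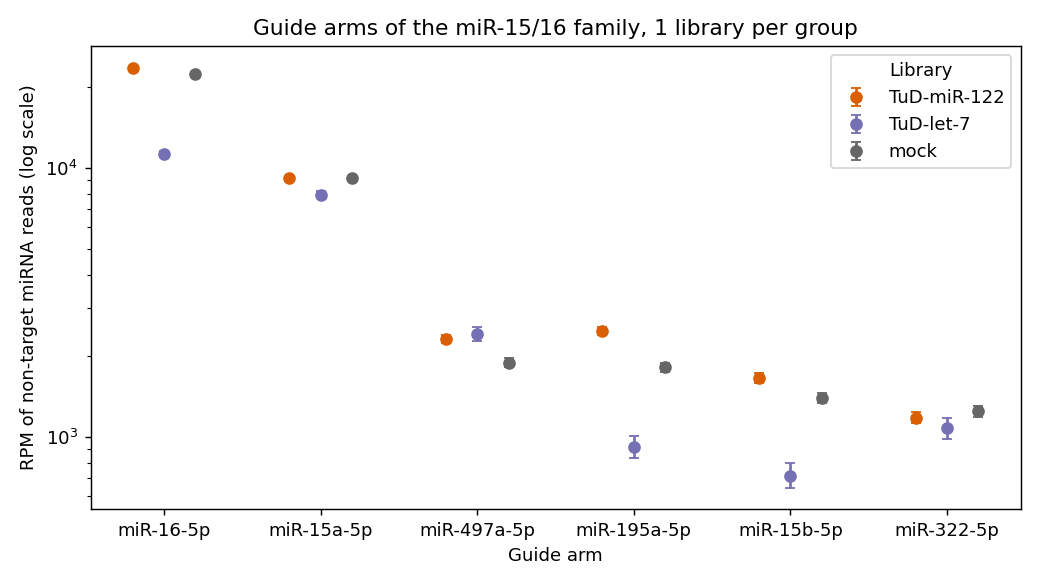
RPM of non-target miRNA reads (log scale) of the 6 guide arms in the TuD-miR-122, TuD-let-7 and mock libraries, with exact Poisson 95% intervals; 1 point is 1 library. miR-16-5p, miR-195a-5p and miR-15b-5p sit lower in TuD-let-7 than in both other libraries, whereas miR-497a-5p does not.

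In the TuD-miR-122 library the members stayed between 0.944 and 1.36 times their mock level. miR-195a-5p had the highest ratio, 1.36 (1.29 to 1.43), followed by miR-497a-5p at 1.23 (1.16 to 1.29) and miR-15b-5p at 1.19 (1.12 to 1.26). miR-16-5p had a ratio of 1.05 (1.03 to 1.06), miR-15a-5p 0.998 (0.974 to 1.02) and miR-322-5p 0.944 (0.882 to 1.01), so the interval included 1 for the last 2 of these. The 2-fold rule asked for 100 or more reads over the library and its control and for an interval of the ratio that excluded every value between 0.5 and 2. None of the 6 guides met it, where 18.5% of 227 non-target miRNAs did, 13.7% on the higher and 4.85% on the lower side. The median ratio of the 6 guides was 1.12, and that of the 227 was 0.986.

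In the TuD-let-7 library the family divided into 3 levels. miR-16-5p at 0.502 (0.488 to 0.517), miR-195a-5p at 0.506 (0.456 to 0.560) and miR-15b-5p at 0.515 (0.458 to 0.578) were near 0.5 of mock. miR-15a-5p at 0.868 (0.837 to 0.900) and miR-322-5p at 0.862 (0.780 to 0.951) were slightly below mock. miR-497a-5p alone was above it, at 1.28 (1.19 to 1.37), a direction that turned to 0.757 when all reads were the scale and to 0.812 on all miRNA reads. On non-target reads no interval lay wholly past 2-fold, against 7.77% of 193 non-target miRNAs, 3.63% on the higher and 4.15% on the lower side. That call depended on the scale and on the control. miR-16-5p passed with size factors, at 0.484 (0.470 to 0.498). On all reads miR-16-5p at 0.297 (0.288 to 0.306), miR-195a-5p at 0.299 (0.270 to 0.331) and miR-15b-5p at 0.304 (0.271 to 0.341) passed, and on all miRNA reads they also did, at 0.319, 0.321 and 0.327. Against TuD-miR-122 the same 3 passed, with the values given above. The background share was counted on non-target reads with mock as control only. The other scales move every miRNA alike, by 0.591 on all reads and 0.634 on all miRNA reads. How many of the 193 would pass there, or against TuD-miR-122, was not counted, so these passes do not set the members apart. The 3 lowest members nevertheless stood toward the lower end of the list: 15 of the 193 had a lower ratio than miR-16-5p, 16 than miR-195a-5p and 17 than miR-15b-5p. The median was 0.689 over the 6 guides and 0.983 over the 193.

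**Figure D2:**
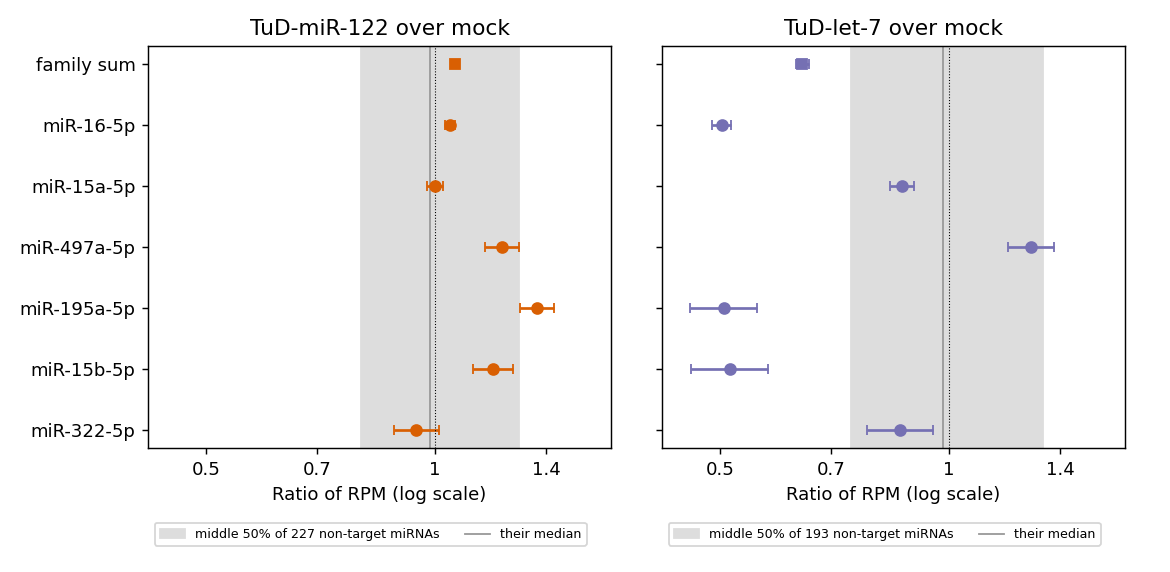
Ratio of RPM to mock (log scale) for the sum of the 6 guides (square) and for each guide (circles), TuD-miR-122 on the left and TuD-let-7 on the right, with exact 95% intervals for counting error. The grey band holds the middle 50% of the non-target miRNAs tested and the grey line is their median; in TuD-let-7 miR-16-5p, miR-195a-5p and miR-15b-5p lie below the band and the other 3 guides inside it.

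Both the sequence pairs and the genomic pairs can be read from ratios within a library, which do not depend on any scale. For each read of miR-497a-5p there were 1.07 reads of miR-195a-5p in TuD-miR-122, 0.381 in TuD-let-7 and 0.964 in mock. The TuD-let-7 library was the one with far fewer reads of miR-195a-5p than of miR-497a-5p. Its ratio was 0.395 times that of mock (0.349 to 0.447), a change of 2.53-fold between guides of neighbouring hairpins. Among 26 pairs of neighbouring non-target miRNAs on one strand within 10 kb, 23.1% had an interval wholly past 1.5-fold in this comparison, and 1 pair (miR-376b-3p with miR-376a-3p) had a larger change. The median change of these pairs was 1.504-fold. The pair of miR-497a-5p with miR-195a-5p is itself counted among the 26 and among those past the rule. In TuD-miR-122 against mock the ratio of miR-195a-5p to miR-497a-5p changed by 1.11-fold, where 5.56% of 36 pairs were past the rule and the median was 1.12-fold.

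The Dleu2 pair also differed in that library. For each read of miR-15a-5p there were 2.57 reads of miR-16-5p in TuD-miR-122, 1.42 in TuD-let-7 and 2.45 in mock. The ratio in TuD-let-7 was 0.579 times that of mock (0.553 to 0.606), and miR-16 is fed by a second locus, so this pair is not a strict measure of one transcript. Within the Smc4 pair, reads of miR-16-5p per read of miR-15b-5p were 14.2 in TuD-miR-122, 15.7 in TuD-let-7 and 16.1 in mock. Here the TuD-let-7 ratio was 0.975 times that of mock (0.866 to 1.10). It became 0.673 times (0.569 to 0.799) when only untailed reads of at least 21 nt were counted, a choice made after seeing the data, so the match between these members held for all reads and not for that form.

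The closest sequence pair had nearly the same ratio in TuD-let-7 as in mock. Reads of miR-16-5p per read of miR-195a-5p numbered 9.52 in TuD-miR-122, 12.3 in TuD-let-7 and 12.4 in mock, and the TuD-let-7 ratio was 0.993 times that of mock (0.894 to 1.11), or 0.861 (0.761 to 0.977) for untailed reads of at least 21 nt. Reads of miR-15a-5p per read of miR-322-5p, from different chromosomes, numbered 7.76 in TuD-miR-122, 7.39 in TuD-let-7 and 7.34 in mock. In composition, miR-16-5p formed 58.4% of the family's guide reads in TuD-miR-122, 46.3% in TuD-let-7 and 59.2% in mock. miR-15a-5p formed 22.7% in TuD-miR-122, 32.6% in TuD-let-7 and 24.1% in mock, and miR-497a-5p formed 5.74%, 9.91% and 4.96% of the same reads in those libraries.

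**Figure D3:**
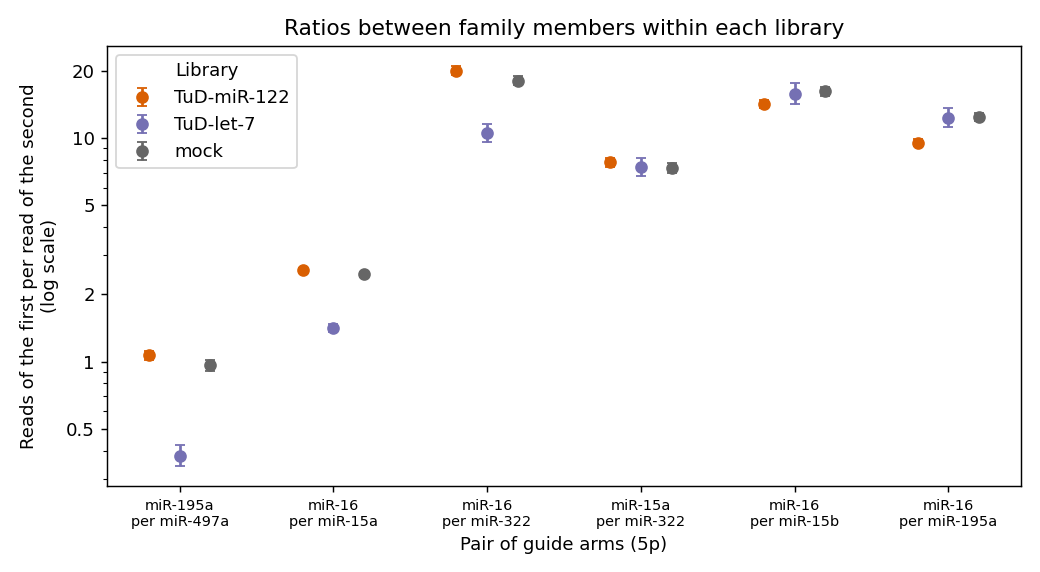
Reads of one guide per read of another within each library (log scale), with exact 95% intervals for counting error; the 3 points of each pair are TuD-miR-122, TuD-let-7 and mock. miR-195a per miR-497a is 0.381 in TuD-let-7, against 0.964 in mock, while miR-15a per miR-322 lies between 7.34 and 7.76 in all 3 libraries.

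The members were compared with the 120 non-target miRNAs that had at least 1000 reads over the 3 libraries, by the distance between their pairs of log2 ratios to mock. Nearest to miR-16-5p were miR-15b-5p (distance 0.19), miR-374b-5p (0.24) and miR-126a-5p (0.24). miR-126a-5p had 0.594 of its mock level in TuD-let-7 and miR-374b-5p had 0.453. The nearest to miR-497a-5p was miR-143-3p (0.03), the nearest to miR-15a-5p was miR-322-5p (0.08), and the nearest to miR-15b-5p was miR-199a-3p (0.16), which cannot be told from miR-199b-3p. miR-511-3p, which is on no marker list used here, was about as near to miR-497a-5p (0.03) as miR-143-3p was. miR-143-3p and miR-199a-3p are both on the stromal marker list, but in TuD-let-7 they were at 1.26 and 0.575 of mock. With 1 library per group each such distance rests on 2 ratios that share the mock library.

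Sums of cell type markers were set beside these patterns, since a change in the cells sampled and a change in RNA per cell cannot be told apart in whole liver. Relative to mock, 4 erythroid markers (miR-451a, both arms of miR-144, miR-486) were at 1.41 in TuD-miR-122, and 0.895 in the TuD-let-7 library. The 2 endothelial markers were at 1.21 and 0.925, the 5 immune markers at 0.930 and 0.718, and the 5 stromal markers at 1.17 and 1.15, in the same order. Members of a list did not all move one way in TuD-let-7. Of the endothelial pair, miR-126a-3p was at 1.08 and miR-126a-5p, from the same hairpin, at 0.594. Of the stromal list, miR-143-3p, with 8773 of its 11643 reads, was at 1.26 and miR-145a-5p at 1.25, while miR-199a-3p was at 0.575, miR-214-3p at 0.873 and miR-199a-5p at 0.983. The 5 immune markers lay between 0.435 and 0.752. All listed markers of these lists were above 0 in every library. The hepatocyte list held miR-122 itself and was at 0.812 and 2.49. In TuD-let-7 miR-122-5p, with 976412 of its 1049392 reads, was at 2.70. Its other members there were miR-122-3p at 1.39, miR-194-5p at 1.35, miR-192-5p at 1.02 and miR-148a-3p at 0.864. The part of all these markers in the family's ratios was not tested.

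Passenger arms were rare, except that of Mir322. Per read of the 3p arm, there were 157 reads of the 5p arm over the family in TuD-miR-122, 87.1 in TuD-let-7 and 166 in mock. The passengers summed to 371 reads (255 RPM) in TuD-miR-122, 136 reads (279 RPM) in TuD-let-7 and 314 reads (228 RPM) in mock. The passenger sum in TuD-let-7 was relatively higher than that of the guides. Its ratio to mock was 1.22 (0.993 to 1.501) on non-target reads and 0.723 (0.587 to 0.887) on all reads, while that of the guides was 0.642 and 0.379. Reads of the guide per read of the passenger were 0.524 times mock in TuD-let-7 (0.427 to 0.647) and 0.946 times mock in TuD-miR-122 (0.811 to 1.10). These are ratios of sums, in which miR-16-5p weighs most among guides and miR-322-3p among passengers. By precursor the TuD-let-7 value was 0.922 (0.493 to 1.83) for miR-15a, 0.820 (0.467 to 1.48) for miR-497, 0.711 (0.390 to 1.38) for miR-16, 0.610 (0.450 to 0.834) for miR-322, 0.537 (0.133 to 3.10) for miR-195a and 0.381 (0.177 to 0.875) for miR-15b. Of these intervals, those of miR-322 and miR-15b lay below 1.

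miR-322-3p alone supplied 194 passenger reads in TuD-miR-122, 73 in TuD-let-7 and 146 in mock. Its guide had 8.79 reads per passenger read in TuD-miR-122, 7.16 in TuD-let-7 and 11.7 in mock. The other members had far fewer passenger reads, with 6, 3 and 9 reads for miR-195a-3p and 46, 21 and 38 for miR-497a-3p in those libraries. miR-15a-3p had 38, 14 and 42 reads, miR-15b-3p had 41, 11 and 23, miR-16-1-3p had 36, 11 and 42, and miR-16-2-3p had 10, 3 and 14. None of the 6 precursor groups had a guide per passenger ratio with an interval wholly below 1/1.5 of mock in TuD-let-7, where 1.32% of 76 non-target precursors did, and none did in TuD-miR-122, where the share was 0% of 102. The median over those precursors was 0.863 in TuD-let-7 and 1.03 in TuD-miR-122. For miR-195a and miR-497, the 3p reads were too few to show whether the passengers followed the imbalance of the guides: the ratio of TuD-let-7 to mock was 0.942 (0.164 to 3.77) for miR-195a-3p and 1.56 (0.870 to 2.73) for miR-497a-3p.

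Which copy of miR-16 supplied its guide can be seen only in reads long enough to reach bases that differ between the precursors. The forms of 25 nt are shown with the bases after the RefSeq mature sequence in capitals. The first capital is T in both precursors, and only the bases at 24 and 25 nt differ.

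Mir16-1: tagcagcacgtaaatattggcgTTA
Mir16-2: tagcagcacgtaaatattggcgTAG

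The Mir16-1 letters were read 333 times in TuD-miR-122, 52 times in TuD-let-7 and 282 times in mock. The Mir16-2 letters were read 3 times in TuD-miR-122, 0 times in TuD-let-7 and 7 times in mock. Reads reaching 24 nt with the Mir16-1 letters numbered 1400, 176 and 1103, and those with the Mir16-2 letters 517, 66 and 482, in the same order. These longer reads favoured Mir16-1 in each library, as did the passenger arms. A T or an A added after base 23 gives the same letters as Mir16-1 or Mir16-2, and long reads are a small share of miR-16, so the split of the guide between the loci was not measured by them.

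The genes beside Mir322 gave 9 of 11 listed arms, all at low counts. miR-503-5p, a near relative whose seed differs from the family's only in its last base, had 88 reads in TuD-miR-122, 25 in TuD-let-7 and 123 in mock. Its ratio to mock was 0.679 (0.510 to 0.900) in TuD-miR-122, and 0.574 (0.358 to 0.888) in the TuD-let-7 library. miR-351-5p, a rodent miRNA of the same cluster, had 260 reads in TuD-miR-122, 122 in TuD-let-7 and 245 in mock, with ratios of 1.01 (0.842 to 1.20) and 1.41 (1.12 to 1.76).

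miR-542-3p had 138 reads in TuD-miR-122, 59 in TuD-let-7 and 92 in mock, giving ratios of 1.42 (1.09 to 1.87) and 1.81 (1.28 to 2.54). miR-450a-5p had 76, 28 and 89 reads, and the other 5 arms had at most 36 reads in any library. Guides of this cluster therefore also differed in direction in TuD-let-7, with miR-503-5p and miR-322-5p below mock and miR-351-5p and miR-542-3p above it, although on the scale of all reads miR-351-5p was at 0.831 (0.663 to 1.04) and miR-542-3p at 1.07 (0.759 to 1.501).

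The 3′ ends differed more between members than between libraries. A tail is here any 3′ end of up to 5 nt that does not match the precursor, and a read is trimmed when its matching part is under 21 nt. miR-15a-5p was tailed in 43.9% of reads in TuD-miR-122, 53.8% in TuD-let-7 and 46.7% in mock. miR-16-5p was tailed in 39.9% of reads in TuD-miR-122, 52.0% in TuD-let-7 and 41.2% in mock. In the other 4 members between 7.16% and 24.1% of reads were tailed. The leading forms of the most tailed members are shown with the tail in capitals.

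miR-15a-5p, 21 nt: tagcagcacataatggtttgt
miR-15a-5p, 22 nt with A: tagcagcacataatggtttgtgA
miR-16-5p, 22 nt: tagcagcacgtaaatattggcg
miR-16-5p, 22 nt with A: tagcagcacgtaaatattggcgA

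The untailed 21 nt form made up 47.8% of miR-15a-5p reads in TuD-miR-122, 38.5% in TuD-let-7 and 45.2% in mock. The 22 nt form with an added A made up 32.3% in TuD-miR-122, 41.0% in TuD-let-7 and 36.0% in mock, and in TuD-let-7 it was the leading form. In RPM the untailed form was at 0.739 of mock in TuD-let-7 (0.697 to 0.782), while the form with A was at 0.988 (0.933 to 1.05). On non-target reads the form with A was thus close to its mock level, and the untailed form was below it. Other scales move both forms alike, by 0.591 on all reads, so only the ratio between the forms is free of scale.

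miR-16-5p showed the same order of its forms at a lower level. Its untailed 22 nt form was at 0.372 of mock in TuD-let-7 (0.347 to 0.399), and the form with an added A was at 0.586 (0.554 to 0.620). In TuD-miR-122 the order was turned, at 1.08 (1.05 to 1.12) for the untailed form and 0.961 (0.930 to 0.993) for the form with A.

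Tails made only of A, the kind added by non-canonical poly(A) polymerases, therefore took different shares. They made up 36.1% of miR-15a-5p reads in TuD-miR-122, 45.3% in TuD-let-7 and 40.3% in mock. For miR-16-5p they made up 30.5% in TuD-miR-122, 36.5% in TuD-let-7 and 32.8% in mock. Both members were highest in TuD-let-7 and lowest in TuD-miR-122, with no overlap of the intervals. In the other 4 members the A-only share in TuD-let-7 was lower than in mock, with differences of -3.99 points for miR-322-5p, -1.60 for miR-195a-5p, -1.16 for miR-497a-5p and -0.92 for miR-15b-5p. For each of these 4 the intervals of TuD-let-7 and mock overlapped. Shares were ranked over non-target miRNAs that reached 1000 reads in the decoy library and in mock. Of these, 2.04% of 49 had an A-only share at least 5 points higher in TuD-let-7 than in mock. miR-15a-5p was 0.0043 points short of that rule, and 1 of the 49 was above it. miR-16-5p (3.65 points higher) had 4 above it, and the median of the 49 was -0.11 points. In TuD-miR-122 against mock, the A-only share was 4.20 points lower for miR-15a-5p, 3.42 points lower for miR-195a-5p and 2.31 points lower for miR-16-5p. There the share at least 5 points lower was 4.05% of 74 miRNAs, and the median was -0.22 points.

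**Figure D4:**
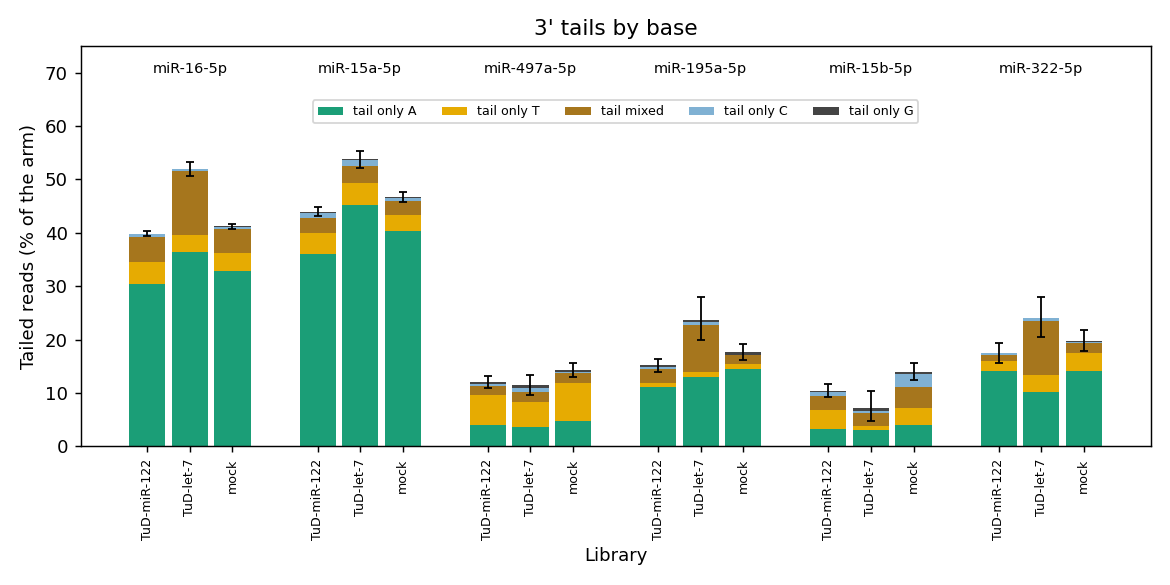
Share of reads of each guide that carry a 3′ tail, split by the bases of the tail, in the TuD-miR-122, TuD-let-7 and mock libraries from left to right; bars start at 0 and the black bracket is the exact 95% interval of the whole tailed share. A-only tails dominate miR-16-5p and miR-15a-5p, and mixed tails are largest in TuD-let-7 for miR-16-5p, miR-195a-5p and miR-322-5p.

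miR-497a-5p had more T-only than A-only tails in every library (T stands for U in the reads). T-only tails were at 5.59% in TuD-miR-122, 4.60% in TuD-let-7 and 7.10% in mock, and A-only tails at 3.95%, 3.66% and 4.83%. miR-15b-5p had 84 T-only and 78 A-only reads in TuD-miR-122, and fewer T-only than A-only reads in the other libraries. The untailed 22 nt form led in miR-195a-5p, at 59.2% in TuD-miR-122, 55.5% in TuD-let-7 and 60.5% in mock. It also led in miR-322-5p, at 65.4% in TuD-miR-122, 62.7% in TuD-let-7 and 64.2% in mock. miR-15b-5p was the shortest, with a matching part under 21 nt in 52.6% of reads in TuD-miR-122, 47.6% in TuD-let-7 and 53.6% in mock. For 4 members (miR-15b, miR-195a, miR-497a and miR-322) the precursor itself has an A after the 21 nt form, so an A added there cannot be told from template.

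**Figure D5:**
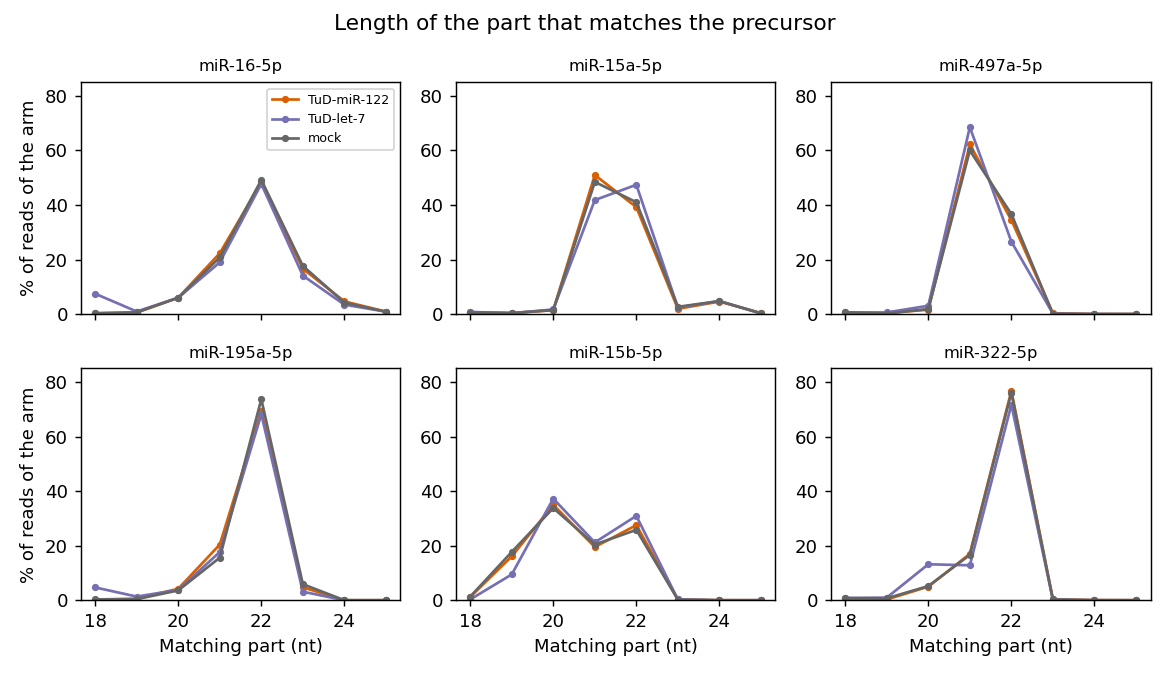
Share of reads of each guide by the length of the part that matches the precursor, from 18 to 25 nt, in the TuD-miR-122, TuD-let-7 and mock libraries. miR-15b-5p is spread over 19 to 22 nt, the other guides peak at 21 or 22 nt, and TuD-let-7 has extra reads at 18 nt for miR-16-5p and miR-195a-5p and at 20 nt for miR-322-5p.

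The whole tailed and trimmed shares of the family were highest in TuD-let-7. Tailed reads were 35.8% of the family in TuD-miR-122, 44.9% in TuD-let-7 and 38.4% in mock, and trimmed reads were 7.61% and 10.9%, against 7.52%. Against mock, the tailed share in TuD-let-7 was 10.8 points higher for miR-16-5p, 7.07 for miR-15a-5p, 6.05 for miR-195a-5p and 4.31 for miR-322-5p, and it was lower by 2.83 points for miR-497a-5p and by 6.84 points for miR-15b-5p. A tailed share at least 5 points higher was found in 40.8% of 49 non-target miRNAs, with a median of 2.69 points. The difference of miR-16-5p was exceeded by 4 of the 49 and that of miR-15a-5p by 16. miR-195a-5p, miR-15b-5p and miR-322-5p had fewer than 1000 reads there and are not among the 49. The trimmed share was at least 5 points higher in 40.8% of the 49 as well, and was 7.49 points higher for miR-16-5p, which 16 of the 49 exceeded. Reads of miR-16-5p that matched 18 nt and went on with TG count here as both tailed and trimmed, and they have the G19T mismatch described below. They made up 7.32% of its reads in TuD-let-7, against 0.147% in TuD-miR-122 and 0.217% in mock. TG reads of the same kind were 4.70% of miR-195a-5p in TuD-let-7, against 0.112% in TuD-miR-122 and 0.240% in mock. Reads of miR-322-5p that matched 20 nt and went on with TA also count in both shares. They were 8.03% of that arm in TuD-let-7 and 0.175% in mock, which is more than its tailed difference of 4.31 points. In TuD-miR-122 the tailed share of all 6 members was lower than in mock, by 1.33 to 3.63 points. There 9.46% of 74 miRNAs were at least 5 points lower and 2.7% at least 5 points higher, none of the members among them, and the median was -0.95 points. Their trimmed shares were within 1.08 points of mock, where 2.7% of the 74 had a trimmed share at least 5 points lower and 0% one that much higher.

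Single-base mismatches moved with the tails of the TuD-let-7 library. In these names the precursor's base comes first, then its position (1 is the 5′ end), then the base read. Reads whose match ended before or shortly after a position were not counted in its share, so shares near the 3′ end are not shares of the whole arm. Reads with G19T, which leave the precursor after 18 matching bases, were 318 of the 3956 miR-16-5p reads counted there in TuD-let-7 (8.04%). The share was 0.141% in TuD-miR-122 and 0.202% in mock. For miR-195a-5p G19T was at 17 of 336 counted reads (5.06%) in TuD-let-7, against 0.150% in TuD-miR-122 and 0.201% in mock. Reads of miR-322-5p that matched for 20 nt and went on with TA made up 8.03% of the whole arm in TuD-let-7, against 0.234% in TuD-miR-122 and 0.175% in mock.

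Mismatches at other positions were also frequent there. A2C, within the seed, was found at 3.87% to 9.71% of reads of all 6 members in TuD-let-7, and at 0.0587% or less in the other libraries. G10T reached 10.7% of miR-16-5p in TuD-let-7, against 0.162% in TuD-miR-122 and 0.510% in mock. The shares of such mismatches in the other non-target miRNAs are not given here, so these values do not show a trait of the family alone. Some reads were 1 base from both miR-16-5p and miR-195a-5p. Those with G10A of the first (G11T of the second) numbered 89 in TuD-let-7, against 36 in TuD-miR-122 and 30 in mock. Those with T11G of the first (A10G of the second) numbered 16 in TuD-let-7, against 67 in TuD-miR-122 and 103 in mock. Such reads cannot be assigned to either. With 1 internal mismatch allowed, the tailed share in TuD-let-7 was 8.63 points above mock for miR-16-5p and 2.64 points for miR-195a-5p, and the trimmed share 4.09 and 2.63 points, while the A-only share of miR-16-5p was 4.53 points and that of miR-15a-5p 4.41 points above mock. For miR-322-5p the tailed share was then 4.75 and the trimmed share 9.29 points above mock. The setting needed 3 matching bases after the mismatch, which a read ending in TA cannot give. Allowing the mismatch raised the reads of miR-16-5p by 8.05% in TuD-miR-122, 27.9% in TuD-let-7 and 7.81% in mock, and those of all non-target miRNAs by 8.26% and 24.1%, against 7.44%. Ratios of levels to mock in TuD-let-7 were 0.516 for miR-16-5p and 0.820 for miR-15a-5p with it, and the ratio of miR-195a-5p to miR-497a-5p was then 0.403 times mock. The source of the mismatches was not tested.

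The 5′ ends were uniform. Reads that started within 2 nt of the main start, but not at it, were at most 2.96% of untailed reads of any guide in any library. miR-322-3p, the passenger with the most such reads, had more, with 26.5% in TuD-miR-122, 21.7% in TuD-let-7 and 22.4% in mock. The seed of the guides was thus the same in nearly all their reads, apart from the mismatches above.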

How the data were processed

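Small RNA libraries of 18 to 30 nt were made from mirVana liver RNA, per the labels' protocols. The deposited values are raw read counts per distinct insert, which the authors made from the reads. Adapter removal, filtering, alignment and build were not given in the sources used here. Each group had 1 library, from an unstated number of animals.

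Reads were assigned to the 1174 miRNA precursors of GENCODE M21 (GRCm38) with Python 3.11, numpy 2.4.6 and scipy 1.17.1. The 5′ end of an arm was its most frequent start among untailed reads, with 10 reads needed. A read had to begin there and match 16 nt or more without mismatch, with up to 5 further nt as a tail. This gave 477 arms, merged to 420 entries where their first 22 nt were identical. No read of the family matched several entries. Names and sequences come from RefSeq (GRCm38.p6), whose starts equal those of all 13 family arms. Near-identical members, such as miR-15a with miR-15b under 20 nt and miR-16 with miR-195a, could exchange reads through sequencing errors. In TuD-let-7 1 read is worth 2.05 RPM, and 0.688 in TuD-miR-122 and 0.726 in mock, so intervals are widest there; a count of 3 reads, the limit that 0 reads allow, is 6.15, 2.07 and 2.18 RPM in that order.

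Ratios carry exact conditional-binomial intervals, shares exact Clopper-Pearson intervals and levels exact Poisson intervals, all at 95%. No test between conditions was made. The calls of the 2-fold rule were checked on Poisson counts simulated from mock with planted changes. Such counts hold no spread between animals and no PCR copies, so the check does not cover these. Every family arm, the arms beside Mir322, the 3 miRNAs nearest to miR-16-5p and sums of marker lists are named by rule. The members and lists were chosen with earlier results of these data known. miRNAs named as nearest to other members and single hepatocyte, endothelial and stromal markers were chosen after their values were seen. So were the pair miR-376b with miR-376a, and miR-136-5p, miR-127-3p and miR-216a-5p. Alternatives were other scales, starts, match lengths, 1 mismatch, tail definitions, trimming limits and read minimums.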

Additional observations from a re-analysis of the deposited data

How the results depend on the processing

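The scale mattered most. For the family in TuD-miR-122 the ratio to mock was 1.05 on all reads, 1.14 on all miRNA reads and 1.03 with size factors, and 1.08 without miR-16-5p. In TuD-let-7 it was 0.379 on all reads, 0.407 on all miRNA reads and 0.618 with size factors. There it was 0.843 without miR-16-5p and 0.605 against TuD-miR-122, both chosen after seeing the data. In TuD-let-7 the family arms with an interval above 1 on non-target reads were miR-497a-5p and miR-322-3p. Both turned below 1, at 0.757 and 0.835 on all reads and at 0.812 and 0.896 on all miRNA reads. The passenger sum and miR-351-5p also went below 1 on all reads, as given above. All 3 factors act alike on every member, so ratios between members do not move with them.

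The family's tailed share in TuD-let-7 was 4.53 points above mock with tails of at most 2 nt, 2.38 for A-only tails and 5.31 with 1 mismatch, and the trimmed share was 1.72 points above mock with 1 mismatch. In TuD-miR-122 the A-only difference was -3.22 points. With 20 reads as the minimum, 64 miRNAs passed the 2-fold rule in TuD-miR-122, against 42 with 100. Other starts, match lengths and leaving out inserts read once moved none of these family values by more than counting error. The cause was not tested.

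No paired analysis was possible because each group had 1 library. Passenger arms, with 3 to 73 reads in TuD-let-7, limit the arm ratios.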
